A study of Rattus norvegicus with 10 samples.

Results

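Genes of the Wnt pathway were followed in the rat hippocampus 1 week after traumatic brain injury (TBI). They were taken by symbol: every name beginning with Wnt, Fzd, Dkk, Sfrp, Axin, Dvl, Tcf7 or Rspo, together with Lrp5, Lrp6, Frzb, Wif1, Lef1, Ctnnb1 and Apc, with rows of the same symbol summed in each library. The rule found 52 genes, on 58 of the 25269 loci of the table, among 23824 rows after summing. Of the 52, 41 had a mean of at least 0.5 FPKM (fragments scaled to transcript length and to the size of the library) over the 10 libraries and were tested. Another 4, Dkk1, Dkkl1, Fzd8 and Wnt8a, were listed at 0 in each library, and the remaining 7 had low values.

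The animals were male Sprague-Dawley rats, a standard outbred strain, and all had surgery. The sham group (5 libraries) had surgery without the blow, and the TBI group (5 libraries) received a fluid percussion injury, in which a pulse of fluid pressure deforms the brain. Each rat took a learning test before the hippocampus was dissected and frozen, and poly-A RNA was sequenced. The labels give no age or genotype and do not state that each library is 1 animal. The spread behind every p-value is therefore that between libraries, and may be partly technical.

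Wnt proteins are secreted lipid-modified ligands that bind Frizzled receptors together with the coreceptors Lrp5 and Lrp6. Without a Wnt signal, a complex built on Axin and Apc marks beta-catenin (Ctnnb1) for destruction. With the signal, Dishevelled (Dvl) proteins hold that complex back and beta-catenin enters the nucleus, where it works with the TCF/LEF factors. In the adult hippocampus the pathway is known for its part in the renewal of dentate granule neurons and in synapse maintenance, and in brain endothelium for keeping the blood-brain barrier.

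No Wnt pathway gene passed the test of injured against sham hippocampus. Limma with Benjamini-Hochberg adjustment over 16194 rows called 0 of the 41 genes, where it called 0% of all rows, and the lowest adjusted p among the 41 was 0.983. Of the 41, 2 had an unadjusted p under 0.05, Fzd6 and Fzd10-ps1, both higher after TBI, against 2.91% of all rows (472 rows). Higher rows made up 1.41% (228) and lower rows 1.51% (244), a split that became 164 and 303 under quantile normalization. The count was 4 without sham 1, 2 without sham 4, 0 without sham 2, sham 5 or TBI 4, and 1 without any one of the other libraries. With none of the 41 genes did the groups stand apart without overlap, which 0.482% of all rows did. The fitted difference was above 0 for 16 genes and below 0 for 25, and for 14 and 26 without TBI 1. Their median log2 difference was -0.067, beside 0.0013 for all rows, and the medians of the 41 genes in single libraries spread by 0.062 (SD within groups). The 95% interval of a gene reached, in the median, 0.44 log2 units to either side.

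The most abundant of the genes was Ctnnb1, at 112 ± 3.98 FPKM in the sham group and 120.3 ± 9.22 in the TBI group (SD, n = 5 in each group, here and below). It was followed by Dkk3, Apc, Dvl1 and Wnt7b. Ctnnb1 was also the steadiest, with the highest library 1.26 times the lowest. Fzd3 (1.29 times) and Axin2 (1.37 times) came next. At the other end stood Wnt6 (82.3 times), Sfrp2 (9.47 times) and Wnt3a (9.17 times). The lowest values of Wnt6 (0.0729 FPKM) and Wnt3a (0.201) were near 0, which widens such ratios. For 17 of the 41 genes the highest library was less than 2 times the lowest, and for 26 without TBI 1. Without that library Ctnnb1 remained the steadiest (1.123 times), followed by Wnt7a (1.22 times), Fzd3 (1.29 times) and Fzd4 (1.33 times).

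A single injured library stood apart. TBI 1 was the highest of the 10 libraries for 11 of the 41 genes and the lowest for 12, so 56.1% of the genes had it at an end, as did 50.5% of all rows tested. The next most frequent library at an end was sham 4, with 24.4% of the genes. TBI 1 held 53.4 FPKM of Chrna3 and 57.6 of Chrnb4, subunits of a nicotinic acetylcholine receptor abundant in the medial habenula, next to the hippocampus. In the other 9 libraries Chrna3 was at 0.177 to 1.08 and Chrnb4 at 0.104 to 1.05. Of the thalamus and habenula markers, 6 of 10 tested were highest and 3 lowest in TBI 1, and their summed level was 247 FPKM there and 91.7 to 109.3 elsewhere. Gbx2, a thalamic gene of the same list, was listed at 0 in 9 of the 10 libraries, TBI 1 among them. The part of such RNA in the values of TBI 1 was not tested.

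**Figure D1:**
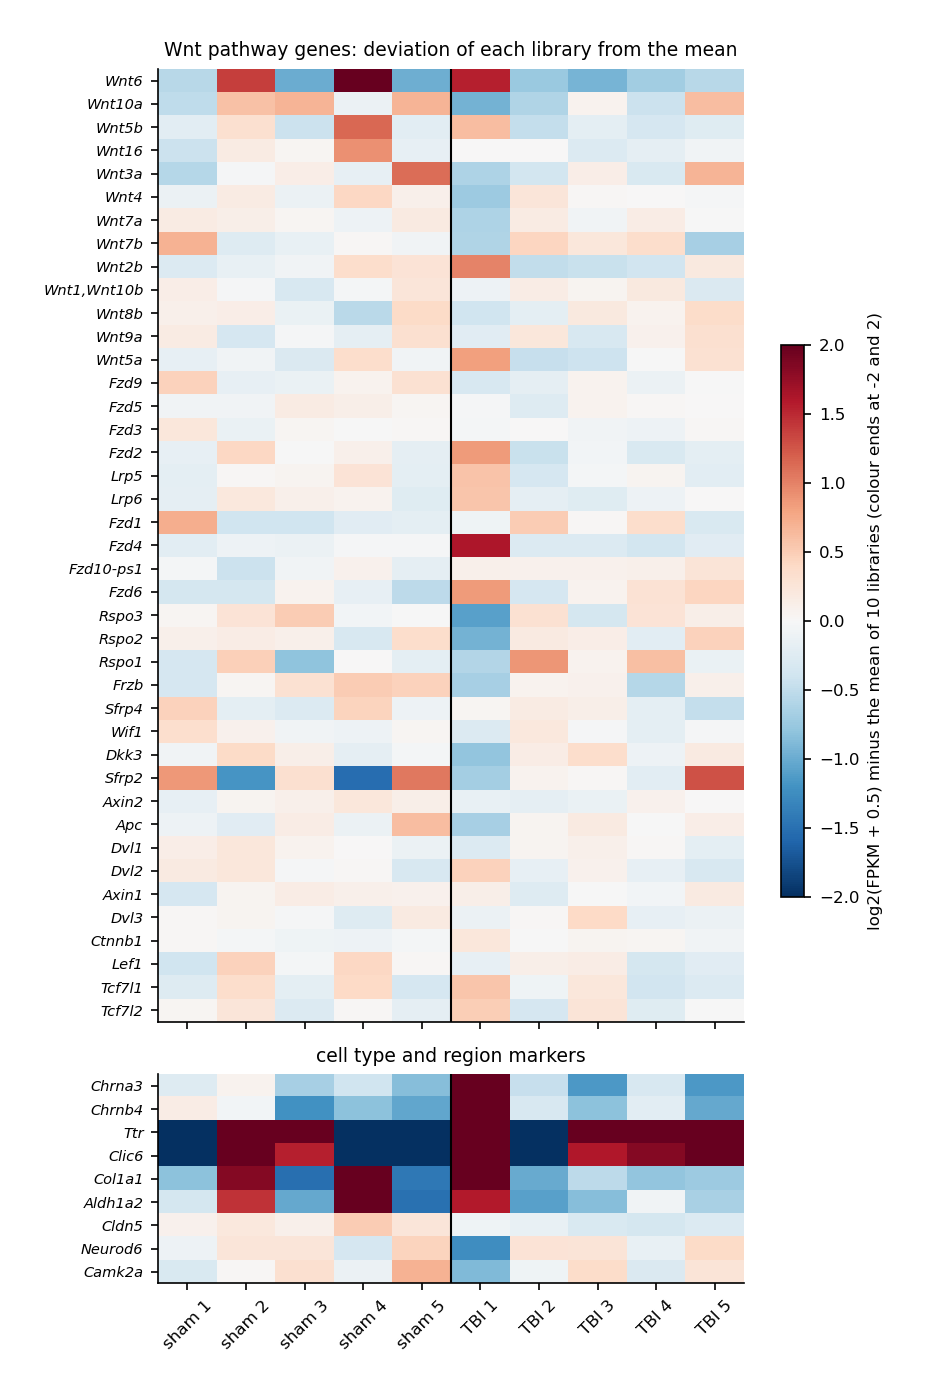
Heat map of log2(FPKM + 0.5) minus the mean of the 10 libraries, with the 41 tested Wnt pathway genes above and 9 markers below, 1 column per library, the sham libraries left of the black line; colours end at -2 and 2, and marker values can lie beyond. The TBI 1 column holds many of the strongest colours, among them high Fzd4, Fzd2 and Fzd6 and low Rspo2, Rspo3 and Dkk3, and it alone is high for Chrna3 and Chrnb4.

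TBI 1 also held the most choroid plexus RNA, with all 10 tested markers highest. The summed level of that list was 33040 FPKM there, beside 53.4 to 31910 elsewhere. Other libraries of both groups were rich in it too. The marker Ttr was at 32233 FPKM in TBI 1, 31400 in sham 2 and 9079 to 17771 in sham 3 and TBI 3 to TBI 5. In sham 1, sham 4, sham 5 and TBI 2 it was at 34.5 to 421. Leaving out TBI 1 does not remove this unevenness. TBI 1 held the least hippocampal neuron RNA, with 7 of 9 markers lowest. The summed neuron markers were at 1514 FPKM there and at 2252 to 3724 elsewhere, so their sum was well above 0 in every library. Camk2a (749 FPKM in TBI 1) and Slc17a7 (555) made up most of the sum there. Not each marker was present throughout: Spink8, a low one, was listed at 0 in TBI 4 and TBI 5. Summed endothelial markers were at 241 FPKM in TBI 1, within the 181 to 284 of the others. In bulk tissue, fewer cells of a type and less RNA per cell cannot be told apart. Each printed log2 difference is therefore given with and without TBI 1. Without it, limma called 0 of 40 genes after adjustment (0% of all rows), and the unadjusted p of 1 of 40, Fzd10-ps1, was under 0.05 (2.75% of all rows).

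The ligands were led by Wnt7b, Wnt4 and Wnt7a, which neurons and glia of the forebrain make. Of 18 ligand rows 13 were tested, 8 with a lower mean FPKM after TBI and 5 with a higher one. Without TBI 1 the fitted difference was below 0 for 8 of 12. Wnt7b, a ligand for dendrite growth and for brain vessels, was at 35.1, 17.8, 19.2, 21.8 and 20.3 FPKM in sham 1 to 5 and at 14.0, 29.0, 25.1, 27.5 and 13.3 in TBI 1 to 5. Sham 1 stood above all other libraries and TBI 1 and TBI 5 below, so the groups overlapped widely. The log2 difference of -0.10 (SE 0.26, limma adjusted p = 0.984) was 0.038 without TBI 1, 0.054 without TBI 5 and 0.064 without sham 1.

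Wnt7a, which acts on synapses and on the vessels of the brain, was at 11.1, 10.7, 10.05, 9.12 and 11.1 FPKM in sham and at 6.22, 11.03, 9.35, 10.9 and 9.79 after TBI. Only TBI 1 lay outside the range of 9.12 to 11.1 that held the other 9 libraries. Its log2 difference of -0.16 (SE 0.14, limma adjusted p = 0.983) was -0.020 without TBI 1. Wnt4, at 20.02 ± 3.24 in the sham group and 17.8 ± 4.08 in the TBI group, had the same shape, with 11.02 FPKM in TBI 1 and 17.1 to 24.9 in the other 9 libraries.

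Wnt10a had the largest difference among the ligands apart from Wnt6, though not without TBI 1, where it was -0.35 and that of Wnt5b was larger. It was at 0.929, 2.55, 2.75, 1.38 and 2.74 FPKM in sham and at 0.549, 0.833, 1.63, 1.00 and 2.60 after TBI. Sham 1 lay among the low libraries and TBI 5 among the high ones. The log2 difference was -0.53 (SE 0.33, 95% interval -1.25 to 0.20, limma adjusted p = 0.983) and lay between -0.75 and -0.35 over 25 alternatives.

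Wnt6 followed several markers of the meninges, the sheets that cover the brain. It was at 0.272, 2.49, 0.0729, 5.9996 and 0.0782 FPKM in sham and at 2.86, 0.182, 0.0997, 0.203 and 0.273 after TBI. Thus sham 2, sham 4 and TBI 1 were at 2.49 or above and the other 7 libraries at 0.273 or below. The same 3 libraries held the most of the collagen Col1a1, with 20.3, 34.3 and 30.5 FPKM against 1.54 to 3.54 in the others. They also held the most of Aldh1a2, a retinoic acid enzyme of the meninges, with 11.3, 23.5 and 12.6 against 1.05 to 3.65. Not every marker of the list split in this way: Dcn was at 27.8 in sham 1 and 25.5 in sham 2, and Lum at 6.86 in TBI 4 and 6.91 in sham 2. The summed level of the 11 meninges and matrix markers with a row was 42.0 to 503 FPKM in sham and 47.6 to 624 after TBI, with Col1a2 listed at 0 in each library. The log2 difference of Wnt6, -0.55 (SE 0.74, limma adjusted p = 0.983), was -1.005 without TBI 1 and 0.013 without sham 4. Wnt6 was singled out after its values were seen, as were the genes of the next sentences.

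Wnt5b, a ligand that mainly acts without beta-catenin, was highest in the same 3 libraries, with 2.64 FPKM in sham 2, 5.08 in sham 4, 3.38 in TBI 1 and 1.31 to 1.69 in the others. Dkk2, a secreted inhibitor of Lrp5 and Lrp6 that was too low for the test, was at 0.4931, 1.44 and 0.547 in them and at 0.0811 to 0.186 elsewhere. The part of meningeal RNA in these values was not tested.

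**Figure D2:**
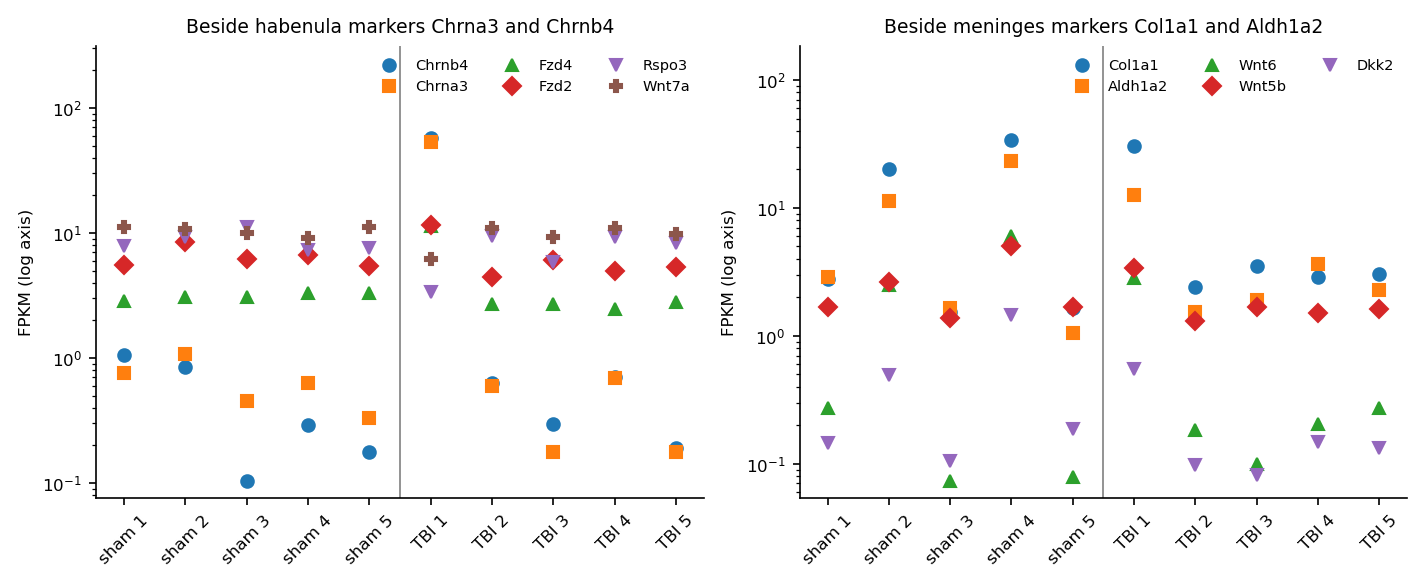
FPKM in each of the 10 libraries on a log axis, 1 symbol shape per gene, the sham libraries left of the grey line. On the left, Chrna3 and Chrnb4 exceed 50 FPKM in TBI 1 alone, where Fzd4 and Fzd2 are highest and Rspo3 and Wnt7a lowest; on the right, Wnt6, Wnt5b and Dkk2 are highest in sham 2, sham 4 and TBI 1, as are Col1a1 and Aldh1a2.

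The other tested ligands were low. Wnt9a was at 3.50 ± 0.721 FPKM in the sham group and 3.58 ± 0.775 in the TBI group. Wnt5a, the main ligand of the branch without beta-catenin, was at 1.47 ± 0.353 and 1.71 ± 0.870, highest in TBI 1 with 3.08. Wnt3a, which the embryonic hippocampus needs for its growth, was at 0.756 ± 0.630 and 0.562 ± 0.411. Its 2 highest values, 1.84 and 1.23, were those of sham 5 and TBI 5. Wnt8b was at 0.981 ± 0.336 and 0.997 ± 0.310, Wnt16 at 0.804 ± 0.514 and 0.572 ± 0.0886, and Wnt2b at 0.536 ± 0.197 and 0.572 ± 0.546. A locus shared by Wnt1 and Wnt10b was at 0.740 ± 0.179 and 0.744 ± 0.164, and its reads cannot be divided between these genes. Wnt1, Wnt3, Wnt9b and Wnt11 stayed under the threshold of the test, with group means of 0.123 to 0.352.

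The receptors and coreceptors were 10 tested rows, counting Fzd10-ps1, whose symbol names a pseudogene. Of these, 7 had a higher mean FPKM after TBI and 6 a fitted difference above 0. This count rested on TBI 1: without it the fitted difference was above 0 for 3 of 10, Fzd1, Fzd6 and Fzd10-ps1, and below 0 for 7. Frizzled-6 (Fzd6), a receptor of planar cell polarity, had the smallest p of all 41 genes. It was at 1.15, 1.15, 1.70, 1.37 and 0.953 FPKM in sham and at 3.29, 1.16, 1.69, 2.07 and 2.33 after TBI. TBI 1, TBI 4 and TBI 5 lay above every sham library, while TBI 2 and TBI 3 lay within the sham range. The log2 difference was 0.52 (SE 0.21, 95% interval 0.057 to 0.99, limma unadjusted p = 0.0312, adjusted p = 0.983), with 4 of 5 injured libraries above the sham mean. Without TBI 1 it was 0.38 (limma unadjusted p = 0.0685). A marker score, the mean centred log2 value of a list, was also used as a covariate. The difference was then 0.35 (choroid plexus), 0.38 (thalamus and habenula), 0.54 (meninges and matrix) or 0.66 (endothelium). With array weights it was 0.32. Its adjusted p ran from 0.456 to 1.00 over 25 alternatives.

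Fzd10-ps1, whose symbol names a pseudogene of the receptor Frizzled-10, was the other gene at an unadjusted p under 0.05. It was at 4.71, 3.45, 4.58, 5.15 and 4.18 FPKM in sham and at 5.24, 5.13, 5.13, 5.20 and 5.90 after TBI. Of the sham libraries, sham 4 alone reached the injured range. TBI exceeded sham by a log2 difference of 0.25 (SE 0.11, 95% interval 0.017 to 0.49, limma unadjusted p = 0.0379, adjusted p = 0.983), with 5 of 5 injured libraries above the sham mean, and by 0.26 without TBI 1. Its adjusted p ran from 0.459 to 1.00 over the same alternatives. Reads of a pseudogene can be shared with similar copies, so the source of this signal is uncertain.

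Frizzled-4 (Fzd4), the receptor of the Norrin signal in brain and retinal vessels, was singled out after its values were seen. It was at 2.85, 3.10, 3.08, 3.29 and 3.30 FPKM in sham and at 11.4, 2.69, 2.70, 2.49 and 2.82 after TBI. TBI 1 held 4.01 times the median of the other 9 libraries, and the other 4 injured libraries all lay just below the 5 sham libraries. With all libraries the log2 difference was 0.19 (SE 0.34, limma adjusted p = 0.983). Without TBI 1 it was -0.19 (unadjusted p = 0.0587), and the groups then did not overlap, as for 0.842% of all rows. Endothelial markers differed in how they ran beside these values. The tight junction gene Cldn5 was at 61.3 to 82.4 FPKM in sham and at 45.3 to 54.3 in the 5 injured libraries. These ranges did not overlap, as for 0.482% of all rows. In TBI 1, where Fzd4 was highest, Cldn5 was at 54.3, below every sham library. With all libraries kept, the groups overlapped for every other marker, as for Mfsd2a, at 8.28 to 12.2 in sham and 8.48 to 12.3 after TBI. Without TBI 1, as used for Fzd4 above, Tek and Esam did not overlap either. Tek was then at 4.20 to 4.57 after TBI and 5.06 to 9.75 in sham, and Esam at 7.59 to 9.70 and 9.93 to 15.9. The remaining markers still overlapped. In TBI 1 itself Tek was at 6.78 and Esam at 10.5, both within the sham range. The endothelium score, the mean centred log2 value of 11 markers, was -0.26 to -0.091 in TBI 2 to TBI 5, 0.24 in TBI 1 and -0.13 to 0.45 in sham. Of the 11 markers, Pecam1, Slco1c1 and Ocln were highest in TBI 1. With this score as a covariate the log2 difference of Fzd4 was 0.53, and the part of endothelial RNA in it was not tested.

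Fzd3, a guidance receptor of growing axons and the most abundant Frizzled, was at 18.3, 14.2, 16.0, 15.5 and 15.8 FPKM in sham and at 15.1, 15.7, 14.8, 14.4 and 15.8 after TBI. The libraries other than sham 1 lay within a narrow band, and the log2 difference was -0.067 (SE 0.076, 95% interval -0.24 to 0.10, limma adjusted p = 0.983). It was -0.067 without TBI 1, -0.019 without sham 1 and -0.11 without sham 2. Fzd2 was at 6.48 ± 1.25 in sham and 6.503 ± 2.93 after TBI, with 11.6 in TBI 1 and 4.46 to 8.51 elsewhere. The coreceptor Lrp6 was at 7.78 ± 1.07 and 8.02 ± 2.09 and Lrp5 at 2.75 ± 0.447 and 2.85 ± 0.893, both highest in TBI 1. Fzd9, a receptor typical of the hippocampus, was at 6.67 ± 1.37 and 5.60 ± 0.639. Fzd1 was at 4.37 ± 1.90 and 4.91 ± 1.23, and Fzd5 at 0.548 ± 0.0789 and 0.499 ± 0.0832.

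**Figure D3:**
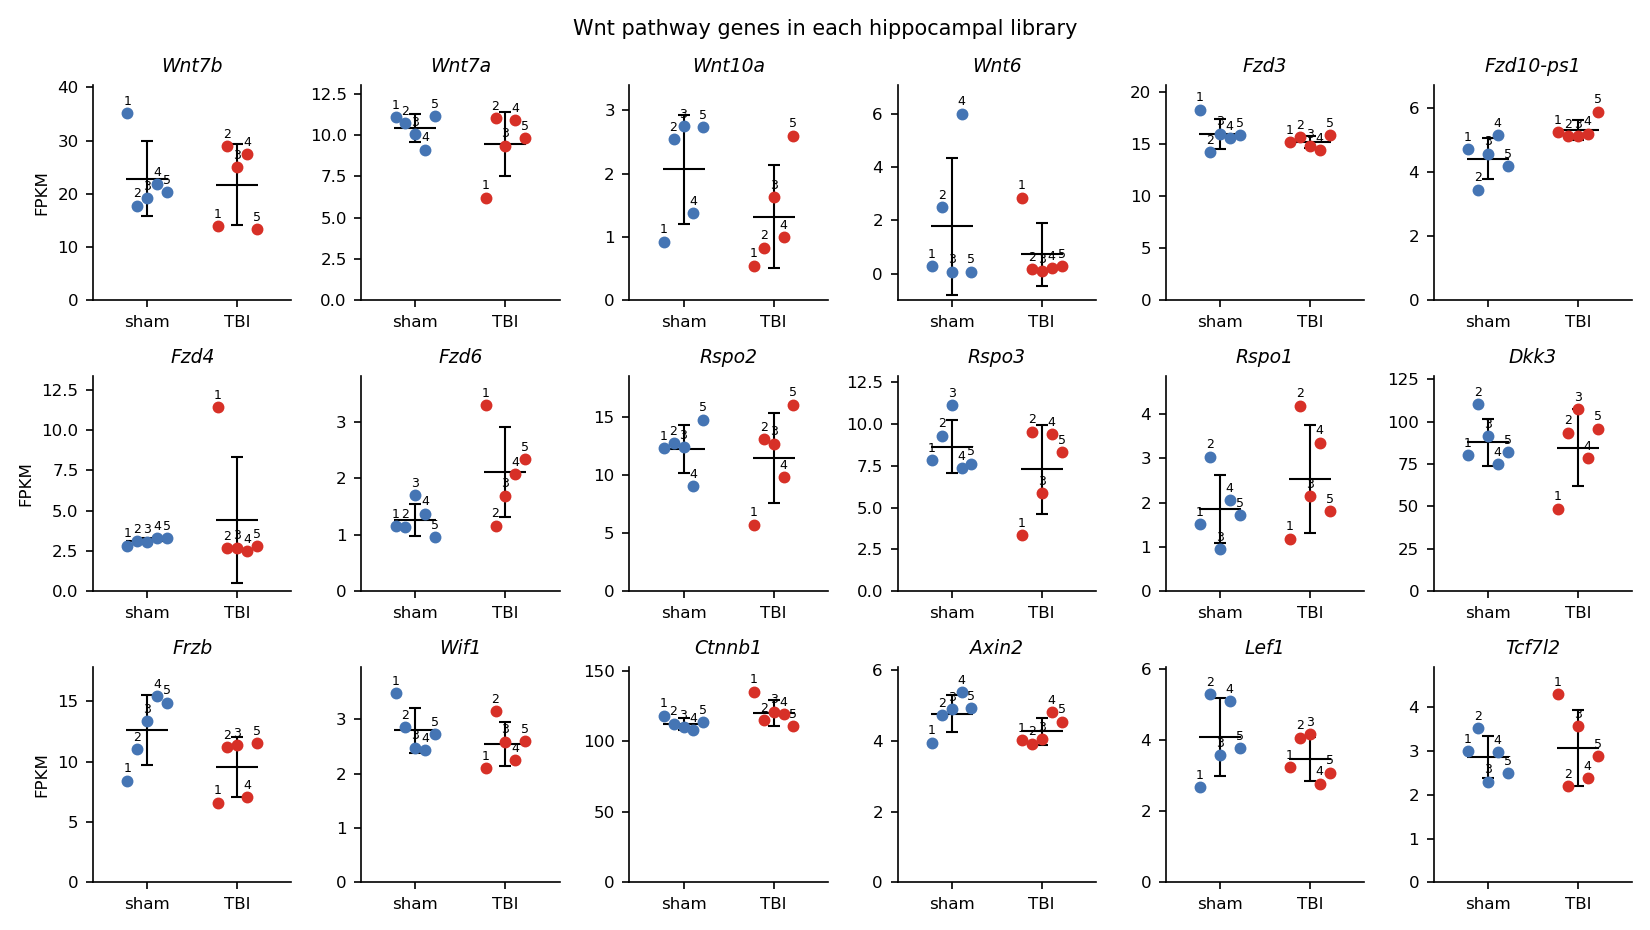
FPKM of 18 Wnt pathway genes in the 5 sham (blue) and 5 TBI (red) libraries, each point labelled with its library number; the horizontal line is the group mean and the bar its SD. TBI 1 lies away from the other 4 injured libraries in Wnt7a, Wnt6, Fzd4, Rspo2 and Dkk3, whereas Ctnnb1 and Fzd3 vary little.

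R-spondins are secreted proteins that keep Frizzled receptors at the cell surface. Rspo2 was at 12.3, 12.8, 12.4, 9.04 and 14.7 FPKM in sham and at 5.72, 13.1, 12.7, 9.82 and 16.0 after TBI. Rspo3 was at 7.83, 9.29, 11.1, 7.33 and 7.62 in sham and at 3.34, 9.52, 5.85, 9.36 and 8.30 after TBI. Both were lowest in TBI 1, at 0.451 and 0.403 times the median of the other libraries. The log2 difference of Rspo2 was -0.15 (SE 0.24) and 0.068 without TBI 1. That of Rspo3 was -0.30 (SE 0.25) and -0.067 without TBI 1. Limma's adjusted p was 0.983 for both.

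Rspo1 was the one R-spondin with a higher mean after TBI. It was at 1.51, 3.04, 0.959, 2.06 and 1.72 FPKM in sham and at 1.19, 4.19, 2.15, 3.35 and 1.80 after TBI. TBI 2 and TBI 4 lay above every sham library and TBI 1 lay low. The log2 difference of 0.33 (SE 0.30, limma adjusted p = 0.983) was 0.52 without TBI 1, 0.18 without sham 3 and 0.15 without TBI 2. With array weights it was 0.77.

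Of the secreted inhibitors, 5 of 10 were tested and 4 had a lower mean after TBI. Without TBI 1 the fitted difference was below 0 for 3 of 5. Dkk3, a Dickkopf relative abundant in forebrain neurons, was at 80.01, 110.4, 91.5, 74.8 and 81.8 FPKM in sham and at 48.8, 93.5, 107, 78.3 and 95.7 after TBI. TBI 1 alone was under 70 FPKM. The log2 difference of -0.085 (SE 0.20, limma adjusted p = 0.983) was 0.10 without TBI 1 and 0.00054 without sham 2.

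Frzb, a decoy receptor that binds Wnt proteins outside the cell, was at 8.42, 11.04, 13.4, 15.4 and 14.9 FPKM in sham and at 6.61, 11.2, 11.3, 7.09 and 11.5 after TBI. The 5 injured libraries were each under the sham mean, but sham 1 and sham 2 lay among them. For Frzb the log2 difference was -0.39 (SE 0.21, 95% interval -0.85 to 0.066, limma adjusted p = 0.983). It was -0.28 without TBI 1 and stayed below 0 in 25 alternatives, from -0.52 to -0.26, and its adjusted p there ran from 0.515 to 1.00.

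Wif1, an inhibitor that binds Wnt proteins directly, was at 3.48, 2.85, 2.48, 2.43 and 2.72 FPKM in sham and at 2.10, 3.15, 2.59, 2.25 and 2.60 after TBI. Sham 1 and TBI 2 were highest, and the log2 difference was small, -0.12 (SE 0.13, limma adjusted p = 0.983). It was -0.064 without TBI 1, -0.048 without sham 1 and -0.19 without TBI 2. Sfrp2, another decoy, varied more between libraries than between groups. It was at 5.28 ± 3.81 and 5.33 ± 3.45 FPKM, with 9.59 in sham 5 and 11.3 in TBI 5 but 1.65 in sham 2 and 1.20 in sham 4. Sfrp4 was at 1.25 ± 0.444 and 1.07 ± 0.272. Sfrp5, too low for the test, was at 1.24 in TBI 1 and at 0 to 0.329 in the other libraries.

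Inside the cell, Ctnnb1 was at 118, 113, 109.8, 108 and 113 FPKM in sham and at 135, 115, 121, 119 and 111 after TBI. TBI 1, TBI 3 and TBI 4 lay above every sham library, while TBI 2 and TBI 5 lay within the sham range. Its log2 difference was 0.096 (SE 0.071, 95% interval -0.062 to 0.25, limma adjusted p = 0.983) and 0.053 without TBI 1.

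Axin2 is the scaffold that beta-catenin itself induces and serves widely as a readout of the pathway. The TCF/LEF core was searched as the word CTTTGAA, the word CTTTGAT, the word CTTTGTA or the word CTTTGTT, on both strands of the 250 bases before each gene's start in RefSeq (rat build GRCr8). It was found for 5 of the 37 pathway genes with an entry, 13.5%, and for 14.9% of all 33469 entries. Dkk1, Dkkl1, Sfrp5 and Wnt8a, all too low for the limma test, held it. Of the 28 tested genes with an entry, 1 held it, Axin2, a smaller share than among all entries. Its sequence is shown beside that of Ctnnb1, which holds none, with the core in capitals; both lie on the plus strand, Axin2 at chr10:94398535-94398784 and Ctnnb1 at chr8:129533887-129534136.
Axin2: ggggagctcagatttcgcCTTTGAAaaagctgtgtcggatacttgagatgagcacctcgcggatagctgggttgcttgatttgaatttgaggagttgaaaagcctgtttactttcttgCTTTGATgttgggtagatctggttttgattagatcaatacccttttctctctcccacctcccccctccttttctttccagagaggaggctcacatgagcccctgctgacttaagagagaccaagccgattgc
Ctnnb1: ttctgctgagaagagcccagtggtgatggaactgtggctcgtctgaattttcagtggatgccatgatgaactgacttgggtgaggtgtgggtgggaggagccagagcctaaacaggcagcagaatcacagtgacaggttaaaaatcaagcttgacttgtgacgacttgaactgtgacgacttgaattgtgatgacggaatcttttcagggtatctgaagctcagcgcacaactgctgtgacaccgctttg

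In Axin2 the cores begin 232 and 132 bases before the start, both on the gene's strand. A match describes letters only, and 1.73% of all entries hold more than 1.

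Axin2 was at 3.95, 4.72, 4.89, 5.38 and 4.94 FPKM in sham and at 4.03, 3.93, 4.06, 4.81 and 4.55 after TBI. Sham 1 lay with the lower injured libraries and TBI 4 with the sham ones. A log2 difference of -0.14 (SE 0.10, 95% interval -0.36 to 0.080, limma adjusted p = 0.983) resulted. It was -0.12 without TBI 1 and lay between -0.20 and -0.10 over 25 alternatives. Axin1, the constitutive scaffold, was at 10.6 ± 1.35 and 10.4 ± 1.24.

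Apc, the other scaffold, was at 36.4 ± 9.37 and 33.2 ± 6.91 FPKM. Its level was the sum of 2 loci that shared it unevenly: the second held 0.353 FPKM in TBI 1 and 3.23 in sham 1 but 11.6 to 24.4 in the other libraries. Dvl1 was at 24.0 ± 2.21 and 22.1 ± 2.50, Dvl3 at 14.8 ± 1.64 and 14.9 ± 2.65, and Dvl2 at 4.47 ± 0.707 and 4.39 ± 1.11.

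Of the nuclear factors, Lef1 was at 2.69, 5.29, 3.58, 5.10 and 3.79 FPKM in sham and at 3.25, 4.07, 4.17, 2.78 and 3.09 after TBI. Sham 2 and sham 4 were the highest and sham 1 the lowest of all 10. The log2 difference was -0.19 (SE 0.18, limma adjusted p = 0.983). It was -0.17 without TBI 1, -0.095 without sham 2, -0.11 without sham 4, -0.12 without TBI 4 and -0.31 without sham 1. With the endothelium score as a covariate it was -0.046. Tcf7l2, which thalamic neurons and maturing oligodendrocytes also express, was at 2.98, 3.51, 2.30, 2.96 and 2.49 in sham and at 4.29, 2.19, 3.57, 2.37 and 2.88 after TBI. It was highest in TBI 1, and its log2 difference of 0.066 (SE 0.17, limma adjusted p = 0.984) was -0.049 without that library. Tcf7l1, mostly a repressor, was at 2.47 ± 0.743 and 2.51 ± 0.828 and also highest in TBI 1.

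**Figure D4:**
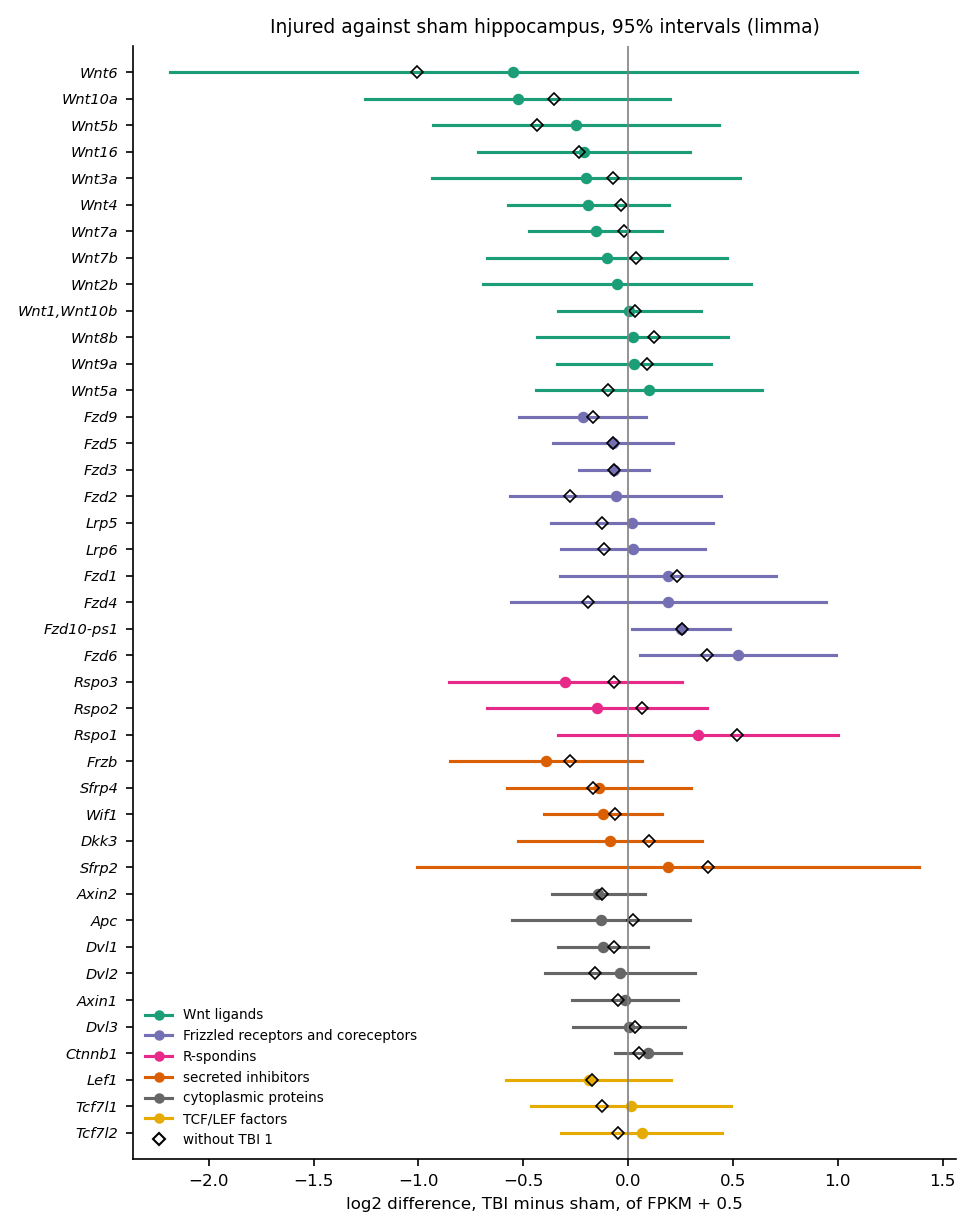
Log2 difference of FPKM + 0.5, TBI minus sham, for the 41 tested genes with the 95% interval of limma, coloured by role; open diamonds give the difference without TBI 1 (none for Wnt2b, which then fell under the expression threshold). The intervals of 39 genes include 0, those of Fzd6 and Fzd10-ps1 lie above it, and the diamonds of Fzd4 and Wnt6 lie far from the filled points.

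Other genes of the pathway were taken from a list of 69 symbols, of which 57 had a row and 51 were tested. Limma called 0 of 51 after adjustment, and the unadjusted p of 2 of 51 was under 0.05, both lower after TBI. That count is near the 2.91% of all rows (1.51% lower). Dact2, which binds Dishevelled, was at 10.4 ± 3.35 in the sham group and 6.15 ± 0.610 FPKM in the TBI group (log2 difference -0.65, SE 0.20, limma adjusted p = 0.983). Csnk1g2, a casein kinase of the Lrp6 signal, was at 54.2 ± 4.96 and 46.7 ± 3.49 (log2 difference -0.21, SE 0.082, limma adjusted p = 0.983). Both differences had the same sign without TBI 1, at -0.60 and -0.19. In 27 of the 51 the fitted difference was above 0, and their median was 0.011. TBI 1 was at an end for 26 of them, 51.0%, close to its share of all rows.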

How the data were processed

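The authors deposited FPKM for 10 hippocampal libraries, with a status word beside each value. It was OK at all 58 loci of these genes and not OK in some library at 81 of all 25269 loci. The values carry no strand, so overlapping genes may share reads. Cufflinks, Cuffdiff, TopHat, TopHat2, Bowtie, Bowtie2 and rn5 are named in the submitters' processing notes. Roles, versions and annotation were not given in the sources used here. Upper quartiles (75th percentiles) lay between 13.1 and 13.5 FPKM, so libraries had been scaled to each other. Low loci piled up at fixed ratios between libraries (within 0.0036 log2 over all triples), with 2.72% to 17.6% of such loci at the peak. These ratios give the size by which each library was scaled, here read as relative depth. It was 57.8% (TBI 2) to 91.7% (sham 2) of that of TBI 1. Absolute depth is unknown and counting error could not be computed.

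Rows of 1 symbol were summed. Unnamed loci were kept as rows. The test was limma 3.58.1 (R 4.3.3; lmFit, eBayes with trend, two-sided) on log2(FPKM + 0.5) for rows with a mean of at least 0.5, with Benjamini-Hochberg adjustment and a threshold of 0.05. It was tested on simulated data. Differences on this scale understate changes of low genes. Groups and library numbers come from the titles. The reported test did not treat equal numbers as pairs, and whether they mark pairs was not settled. Alternatives covered the pseudocount, filter, scaling, summing, variance model, weights, block, 4 marker scores as covariates and libraries left out. Leaving out both libraries numbered 1 was chosen after seeing the data. A marker score averages a list's log2 values after each gene is centred.

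The genes, lists and tests were chosen with earlier results of these data known. Values of all libraries are given for Ctnnb1, for the most abundant gene of each role, for the 2 genes of each role with the smallest p, 16 genes in all, and for genes whose groups do not overlap, of which there were 0. Of other pathway genes, those at an unadjusted p under 0.05 are named.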

Additional observations from a re-analysis of the deposited data

Results flagged for a closer look

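Of 82 group-wise checks of the 41 tested genes, 14 (17.1%) put 1 library farther from its group than Dixon's 95% limit allows. For normally distributed values chance alone gives about 5%. The check was not run over all rows, so whether 17.1% is particular to these genes is unknown. TBI 1 was at an end for 50.5% of all rows tested. The genes share libraries, so these checks are not independent.

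TBI 1 was that library for 6 genes. It was high in Fzd4 (11.4 FPKM, the other injured libraries at 2.49 to 2.82), Fzd2 (11.6 against 4.46 to 6.04), Lrp6 (11.7 against 6.54 to 7.81), Wnt5b (3.38 against 1.31 to 1.69) and Wnt6 (2.86 against 0.0997 to 0.273), and low in Apc (21.2 against 33.8 to 38.4). Sham 1 was high in Wnt7b (35.1 against 17.8 to 21.8) and Fzd1 (7.74 against 3.28 to 3.82) and low in Axin1 (8.21 against 10.8 to 11.6). TBI 5 was high in Sfrp2 (11.3 against 2.54 to 4.64) and Fzd10-ps1 (5.90 against 5.13 to 5.24). Sham 5 was high in Wnt3a (1.84 against 0.226 to 0.684), sham 4 in Wnt5a (2.08 against 1.16 to 1.42), and TBI 3 in Dvl3 (19.5 against 13.1 to 14.9).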

How the results depend on the processing

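No alternative gave a Wnt pathway gene an adjusted p under 0.05 in limma's test; the lowest over 25 alternatives was 0.456, for Fzd6 with the endothelium score. Of all rows, 2 were called without sham 4 (0 to 2 over libraries left out). The count of Wnt pathway genes at an unadjusted p under 0.05, 2, was 1 with quantile normalization and with the choroid plexus or the thalamus and habenula score, 4 with array weights, 5 without both libraries numbered 1, and 0 to 4 over libraries left out. The count of other pathway genes, 2, was 4 with array weights, 8 with the endothelium score and 1 to 3 over libraries left out. All rows at an unadjusted p under 0.05 numbered 472 in the reported test, 1318 with array weights, 1749 with the endothelium score, 751 with the meninges score, 804 without the filter, 850 without both libraries numbered 1, and 338 to 773 over libraries left out (773 without sham 2, 743 without TBI 2). The replicate block on the title numbers gave 2 Wnt pathway genes, Frzb and Wnt10a; same-numbered libraries correlated at -0.38 to 0.31 in their deviations from the group means, and no library was closest to its own number.

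Of the 18 genes with a printed difference, 10 kept their direction in all 25 alternatives; of all 41 tested, 15 did, with 114 of 1017 values reversed. Array weights turned the log2 difference of Dkk3 to 0.015, Fzd4 to -0.14 and Wnt7b to 0.15. The thalamus and habenula score turned Dkk3 to 0.080, Fzd4 to -0.16, Rspo2 to 0.059, Tcf7l2 to -0.050 and Wnt7b to 0.036. The choroid plexus score turned Tcf7l2 to -0.031 and Wnt7b to 0.14, and the endothelium score Wnt6 to 0.57. Without both libraries numbered 1 the values were 0.070 for Dkk3, -0.22 for Fzd4, 0.074 for Rspo2, -0.032 for Tcf7l2, 0.0060 for Wif1, 0.0019 for Wnt7a and 0.20 for Wnt7b. Over libraries left out, Dkk3 ran from -0.18 to 0.10, Fzd4 from -0.19 to 0.31, Rspo2 from -0.28 to 0.068, Tcf7l2 from -0.049 to 0.16, Wnt6 from -1.005 to 0.013 and Wnt7b from -0.22 to 0.064. The cause of these turns was not tested. Absolute depth is unknown and limits what can be said of ligands under 1 FPKM.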
